A study of Mus musculus with 5 samples.

Results

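The genes described here are the Wnt ligands, their receptors and coreceptors, their secreted antagonists and the proteins that carry their signal to the nucleus. Members were taken by gene name: every Wnt and Frizzled (Fzd) name, Dvl1 to Dvl3, the numbered Sfrp genes, the Tcf7 names, Axin1 and Axin2, and Lrp5, Lrp6, Ctnnb1, Apc, Gsk3a, Gsk3b, Lef1, Porcn, Wls, Rspo1, Rspo2, Rspo3, Znrf3 and Rnf43. This gave 56 of the 49875 gene IDs in the table. Of these, 34 reached 1 in 2 or more of the 5 libraries and were tested, and the other 22 did not.

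Secreted Wnt proteins are lipid-modified, bind Frizzled receptors together with the coreceptors Lrp5 or Lrp6, and keep β-catenin from being phosphorylated and degraded by a complex of Apc, Axin and Gsk3. β-catenin then enters the nucleus and acts with Lef1 and Tcf proteins. In the dorsal telencephalon this pathway is known for patterning from the cortical hem, for keeping progenitors dividing and, through ligands of the Wnt7 class, for vessel growth into the brain.

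All 5 libraries came from wild-type mouse embryos at E13.5, a stage of cortical neurogenesis. Sample titles name the neocortex and the tissue field the forebrain, and the labels name no transgene or treatment. The cortices were made into single cells and lysed, and the cytoplasmic supernatant was either sequenced directly (Input, n = 2), precipitated with an antibody against eIF4E (n = 2), or precipitated with control rabbit immunoglobulin G (IgG, n = 1). eIF4E is the protein that binds the cap of an mRNA and recruits the other factors that start its translation. The eIF4E and Input libraries were named biological replicates without the animals or pools behind them, so p-values reflect how far these libraries differ and nothing wider. Levels below are RSEM abundances, either TPM or FPKM, which are per length and can be compared between genes inside a library. Fold changes are on the scale of value + 1, so they understate changes of low genes, and a value is called past the threshold at a limma adjusted p under 0.05.

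Depth is unknown, since the table holds no counts. All values of a library summed to 838759 and 848550 in Input, 718857 and 708778 in eIF4E and 560076 in IgG. Neither the main fit nor the marker sums below were adjusted for these unequal totals, so the sums are not shares of a library. The eIF4E pair correlated at r = 0.989 and the Input pair at r = 0.993 across the 12769 genes tested, while IgG stood apart, at r = 0.593 to 0.707 with the other libraries. IgG listed 31 of the 56 members at exactly 0, against 6 to 10 in the other libraries, and it also listed at 0 360 of the 5403 genes that were above 10 in each other library. Progenitor markers of the dorsal telencephalon were all above 0 in every library (12 genes, summed level 2114 and 2154 in Input, 2038 and 1939 in eIF4E, 1543 in IgG), as were 10 markers of cortical neurons (1495 to 1545). Other cell types were present at lower sums, except erythroid cells. The 10 ventral telencephalic markers summed to 41.5 to 57.35, and the 12 meningeal markers to between 97.21 and 140 in eIF4E and Input and 271.5 in IgG. Of the meningeal markers 8 were listed at 0 in IgG, as were 6 of the endothelial, 8 of the microglial and 2 of the erythroid ones. The 12 endothelial and mural markers summed to 171.1 and 179.4 in Input, 80.96 and 81.34 in eIF4E and 40.7 in IgG, and the 10 microglial markers to 52.32 and 61.23, 27.31 and 20.73, and 21.97. The 10 erythroid markers summed to 17170 and 18700 in Input, 6448 and 4845 in eIF4E and 2541 in IgG. In such bulk samples fewer cells of a type and less RNA per cell cannot be told apart, nor, in a precipitate, from how much of that RNA was recovered.

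Because eIF4E sits on the capped end, the bases around the annotated starts of some members that differed, and of Gsk3a, which did not pass the test, are shown first. Fzd7, Dvl2, Wls and Wnt3a also differed and have an entry that is not printed, as has the more downstream start of Tcf7l2. They are RefSeq starts on GRCm38.p6, the assembly of mm10, not starts measured in these libraries, and 37 of the 56 members have an entry. Each line runs 5′ to 3′ on the gene's strand, with 10 bases before the start and 20 from it on, and the capitals mark the first 5 transcribed bases.
Gsk3b: cgagaaaggtACACGcccagcggagttgtc
Gsk3a: cgggtcgaggGTGGTgacaacgaagccgac
Ctnnb1, the more upstream of 2 starts: cctcgtcctcGCGCGgcggaacgctccgcg
Ctnnb1, the more downstream start: ggcgccgagcCGTCAgtgcaggaggccgag
Fzd1: ccgccaccacTACTTcctccacctcctccg
Sfrp2: cccagcctctGCTCActctgctcccccggg
Tcf7l2, the more upstream of 2 starts: gtgtgttcctCTCGCcctgtcaataatctc
Tcf7l1: caaacgatcgGAGCCgggccagcgagaggg
Dvl3: ggaagagtcgCGATCgccagcggagcgccg
Wnt7a: cccgcgcctcAAACActtgccgcgatcgct
Wnt8b: gatgtgaggtGGCTTcatttcaccacccct
Fzd9: tgagcccgagCGGCCgcgccgcggggcgat
The windows lie at chr16:38088991-38089020 (plus strand) for Gsk3b, chr7:25237832-25237861 (minus) for Gsk3a, chr9:120933390-120933419 and chr9:120933568-120933597 (plus) for Ctnnb1, chr5:4758197-4758226 (minus) for Fzd1 and chr3:83766311-83766340 (plus) for Sfrp2. Those of Tcf7l2, Tcf7l1, Dvl3, Wnt7a, Wnt8b and Fzd9 lie at chr19:55741800-55741829 (plus), chr6:72789026-72789055 (minus), chr16:20516976-20517005 (plus), chr6:91411334-91411363 (minus), chr19:44493462-44493491 (plus) and chr5:135251028-135251057 (minus). A terminal oligopyrimidine start, searched on the gene's strand as C at the first transcribed base followed by at least 4 bases that are C or T, was in none of the 47 windows of members and in 2.51% of all 32851 windows. Most windows of any gene lack these letters, so their absence does not set the members apart. The first 50 transcribed bases had a median GC content of 68% in the 19 tested members with a window and 66% in the 9628 tested genes with one. Across genes, which are not independent replicates, Spearman's rho between this GC content and the log2 fold change of eIF4E against Input was −0.27 over those members and −0.01 over all those genes.

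Setting eIF4E against Input addresses which mRNAs of the cytoplasm came down with the cap-binding protein out of proportion to their level. The Wnt pathway mRNAs went both ways. Of the 34 tested, 15 were higher in eIF4E (43.3% of all genes tested were) and 10 were lower (30.6%), which is 44.1% and 29.4% of the members and close to the background. The median log2 fold change was 0.21 over the tested members and 0.16 over all genes tested, and single members ran from −1.11 to 3.04. Both eIF4E values exceeded both Input values in 47.1% of the tested members and 50.3% of all genes tested. They lay below both Input values in 29.4% and 37.6%, so separation of the 2 groups was common. By role, 4 of the 6 tested ligands were lower and none higher. Of the 6 genes of the destruction complex and its substrate, 4 were higher and none lower. Of the 6 tested receptors, 3 were higher and 2 lower. These small counts were not tested against the shares over all genes. Among these calls, that of Wnt7b was lost with the same total for each library and that of Axin1 after quantile normalization. Those of Fzd7, Fzd9 and Wnt3a were also lost in some alternatives, given below. Over all tested members the split depended on the scaling between libraries. It was 12 higher and 11 lower after median-of-ratios scaling, 16 and 8 after rescaling to the same total, and 12 and 13 after quantile normalization. Over all genes tested the share of higher among the calls moved too, from 58.6% to 45.7%, 70.3% and 45.5%. Over the members it moved from 60% to 52.2%, 66.7% and 48%. Of the calls, 11 of the 15 higher and 5 of the 10 lower held in every alternative that could test them. The filter itself favoured a few calls: Lrp6 passed it only through eIF4E, Apc and Rspo3 only through eIF4E and IgG, and Wnt3a only through Input.

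**Figure D1:**
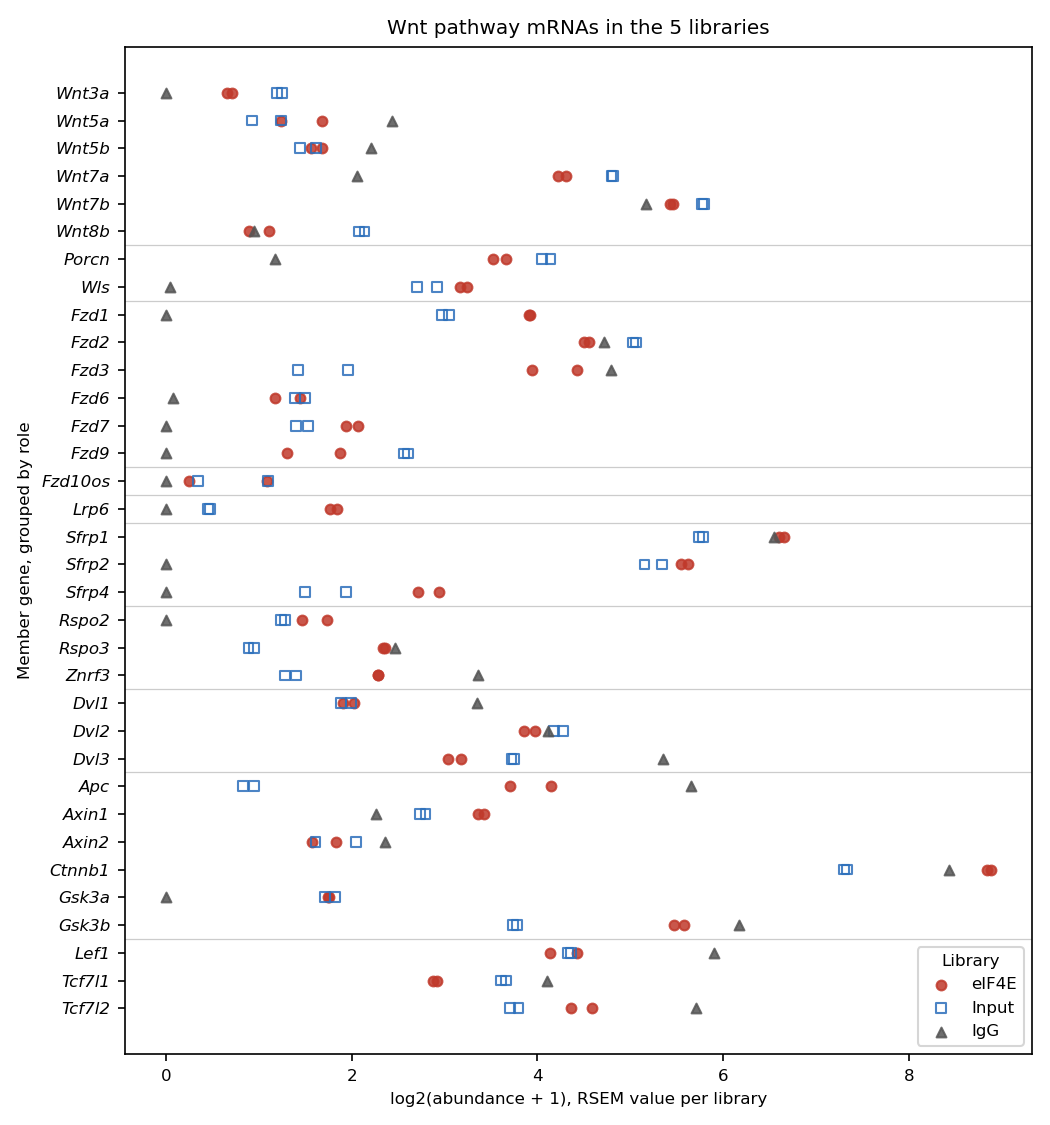
Abundance of the 34 tested members in each library, as log2(value + 1) on the x axis, with genes on the y axis grouped by role (circles eIF4E, squares Input, triangles IgG). Both eIF4E libraries lie far right of both Input libraries for Apc, Fzd3, Ctnnb1 and Gsk3b, and the IgG library lies at 0 for 10 of the genes.

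The ligands were led by Wnt7b and Wnt7a, which together made up 86.9% and 87.7% of the summed level of the 19 Wnt mRNAs in the Input libraries and 89% and 90.5% in the eIF4E libraries. Wnt7b, a ligand of cortical progenitors and young neurons (chromosome 15, 85535437 to 85581821), measured 42.12 and 42.92 in eIF4E, 53.75 and 54.62 in Input and 35.02 in IgG. Both eIF4E values lay below both Input values, as in 37.6% of all genes tested, and above IgG. It fell to 0.789 of Input (log2 −0.34, SE 0.05, limma adjusted p = 0.00358), but missed the threshold when all libraries were given the same total (log2 −0.11, adjusted p = 0.157). Wnt7a, which shares the receptor complex of Wnt7b on brain endothelium, measured 17.70 and 18.86 in eIF4E, 27.18 and 26.82 in Input and 3.16 in IgG. It fell to 0.688 of Input (log2 −0.54, SE 0.07, adjusted p = 0.00234), a call that held in every alternative.

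The ratio of Wnt7b to Wnt7a inside a library does not depend on the library's scale. It was 1.98 and 2.04 in Input, 2.38 and 2.28 in eIF4E and 11.1 in IgG, so the values of the 3 groups did not overlap. With 2 libraries against 2, a two-sided exact permutation test cannot give a p below 0.333, so none is given for this and the later ratios.

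Wnt8b and Wnt3a, which are among the ligands known from the cortical hem, the signalling centre at the medial edge of the cortex, were low. They do not stand for all hem ligands: Wnt5a, which did not fall, and Wnt2b, which was not tested, are given below. Wnt8b measured 1.16 and 0.85 in eIF4E, 3.40 and 3.23 in Input and 0.92 in IgG. It fell to 0.463 of Input (log2 −1.11, SE 0.13, adjusted p = 0.0015), the largest fall among the tested members and one that held in every alternative. Wnt3a measured 0.64 and 0.58 in eIF4E and 1.29 and 1.38 in Input and was listed at 0 in IgG. It passed the filter on low values only through its Input libraries, which favours a fall. Its value was 0.69 of Input (log2 −0.54, SE 0.12, adjusted p = 0.0123), and it did not pass without Input replicate 2 (log2 −0.51, adjusted p = 0.0621). Markers of hem and choroid plexus had a summed level of 24.64 and 23.16 in eIF4E, 44.93 and 42.58 in Input and 11.26 in IgG, where 10 of the 12, among them Ttr, Msx1 and Folr1, were listed at 0. Of the 6 tested, 2 were higher (Bmp4 and Trp73) and 4 lower (Ttr, Folr1, Bmp7 and Msx1) in eIF4E than in Input. The part of these cells in the ligand values was not tested.

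Ligands best known for signalling without β-catenin did not pass the test against Input. Wnt5a measured 2.20 and 1.35 in eIF4E against 1.36 and 0.90 in Input (adjusted p = 0.166), with overlapping groups, and 4.41 in IgG. Wnt5b measured 2.19 and 1.95 against 1.71 and 2.06 (adjusted p = 0.529) and 3.62 in IgG, which was again above the other libraries. The remaining 13 ligands were not tested. Of these, Wnt1, Wnt2, Wnt8a, Wnt10b and Wnt16 were listed at 0 in all 5 libraries, and Wnt2b, Wnt3, Wnt4, Wnt6, Wnt9a, Wnt9b, Wnt10a and Wnt11 reached at most 1.58 (Wnt6, Input replicate 1). None of the 13 was above 0 in IgG. The annotated spans of Wnt3 and Wnt9b overlap, and the libraries were not stranded, so reads of these genes may not be told apart.

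The proteins that prepare Wnts for secretion went in opposite directions. Porcn, the enzyme of the endoplasmic reticulum that attaches the lipid, measured 11.64 and 10.46 in eIF4E, 16.65 and 15.58 in Input and 1.25 in IgG. It fell to 0.704 of Input (log2 −0.51, SE 0.09, adjusted p = 0.0072), just missing the threshold without Input replicate 1 (adjusted p = 0.0519). Wls, the carrier that brings lipid-modified Wnts to the cell surface, measured 8.44 and 7.99 in eIF4E, 6.57 and 5.49 in Input and 0.03 in IgG. It rose 1.31-fold over Input (adjusted p = 0.0344), but was lower after quantile normalization (log2 −0.14, adjusted p = 0.328) and with median-of-ratios scaling it did not pass (log2 0.11, adjusted p = 0.435). Wls did not pass either without eIF4E replicate 1, eIF4E replicate 2 or Input replicate 2 (adjusted p = 0.135, 0.0965 and 0.128).

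Among the receptors, Fzd3 had the largest rise. This Frizzled is known for guiding axons of the forebrain through the planar polarity pathway. It measured 14.31 and 20.49 in eIF4E, 1.68 and 2.89 in Input and 26.61 in IgG, so both eIF4E values were far above Input and below the control precipitate. The rise was 5.62-fold over Input (chromosome 14, 65192441 to 65262463; log2 2.49, SE 0.25, adjusted p = 9.3e-04). Against IgG it did not pass (log2 −0.61, SE 0.31, adjusted p = 0.127), though it did when libraries had the same total (log2 −0.95, adjusted p = 0.0316).

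Fzd1 also rose over Input. It measured 14.15 and 13.98 in eIF4E and 6.85 and 7.25 in Input, a separation upward seen in 50.3% of all genes tested, and was listed at 0 in IgG. The rise over Input was 1.87-fold (log2 0.90, SE 0.09, adjusted p = 8.3e-04) and held in every alternative. Fzd2, the most abundant Frizzled of Input, went the other way, with 21.70 and 22.58 in eIF4E, 31.72 and 32.49 in Input and 25.37 in IgG. It fell to 0.699 of Input (log2 −0.52, SE 0.06, adjusted p = 0.00156), also in every alternative. Inside a library the ratio of Fzd1 to Fzd2 was 0.216 and 0.223 in Input and 0.652 and 0.619 in eIF4E.

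The other Frizzleds were lower in abundance. Fzd7 measured 2.83 and 3.18 in eIF4E against 1.63 and 1.89 in Input (1.45-fold, adjusted p = 0.014), a call lost after median-of-ratios scaling (adjusted p = 0.0797) and quantile normalization (0.691), and without eIF4E replicate 2 (0.0571) or Input replicate 1 (0.0701). Fzd9 measured 2.67 and 1.46 against 4.92 and 5.08 and fell to 0.501 (adjusted p = 0.012), a call lost without Input replicate 1 (adjusted p = 0.0717), without Input replicate 2 (0.078) and with no filter on low values (0.054). Fzd6 measured 1.26 and 1.72 against 1.82 and 1.61 (adjusted p = 0.454), and 0.05 in IgG; it was lower than Input only after quantile normalization (log2 −0.46, adjusted p = 0.0312). Both Fzd7 and Fzd9 were listed at 0 in IgG. Fzd4, Fzd5, Fzd8 and Fzd10 were not tested, with values of at most 0.68 in eIF4E and Input; Fzd8 was the only untested member above 0 in IgG (1.55). Fzd10os, a noncoding transcript named for its position opposite Fzd10, entered by its name; it measured 0.19 and 1.13 in eIF4E and 0.27 and 1.14 in Input, so each pair was itself widely spread (adjusted p = 0.914).

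Of the coreceptors only Lrp6 was tested. It measured 2.58 and 2.41 in eIF4E and 0.37 and 0.39 in Input and was listed at 0 in IgG. It passed the filter on low values only through its eIF4E libraries, which favours a rise. Its value was 2.53-fold that of Input (chromosome 6, 134446476 to 134566913; log2 1.34, SE 0.12, adjusted p = 5.6e-04). Its close relative Lrp5 measured 0.24 and 0.27 in eIF4E, 0.47 and 0.41 in Input and 0 in IgG. The ratio of Lrp6 to Lrp5 was therefore 10.8 and 8.93 in eIF4E and 0.787 and 0.951 in Input. It is uncertain, because Lrp5 in every library and Lrp6 in Input lay under the filter value of 1.

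**Figure D2:**
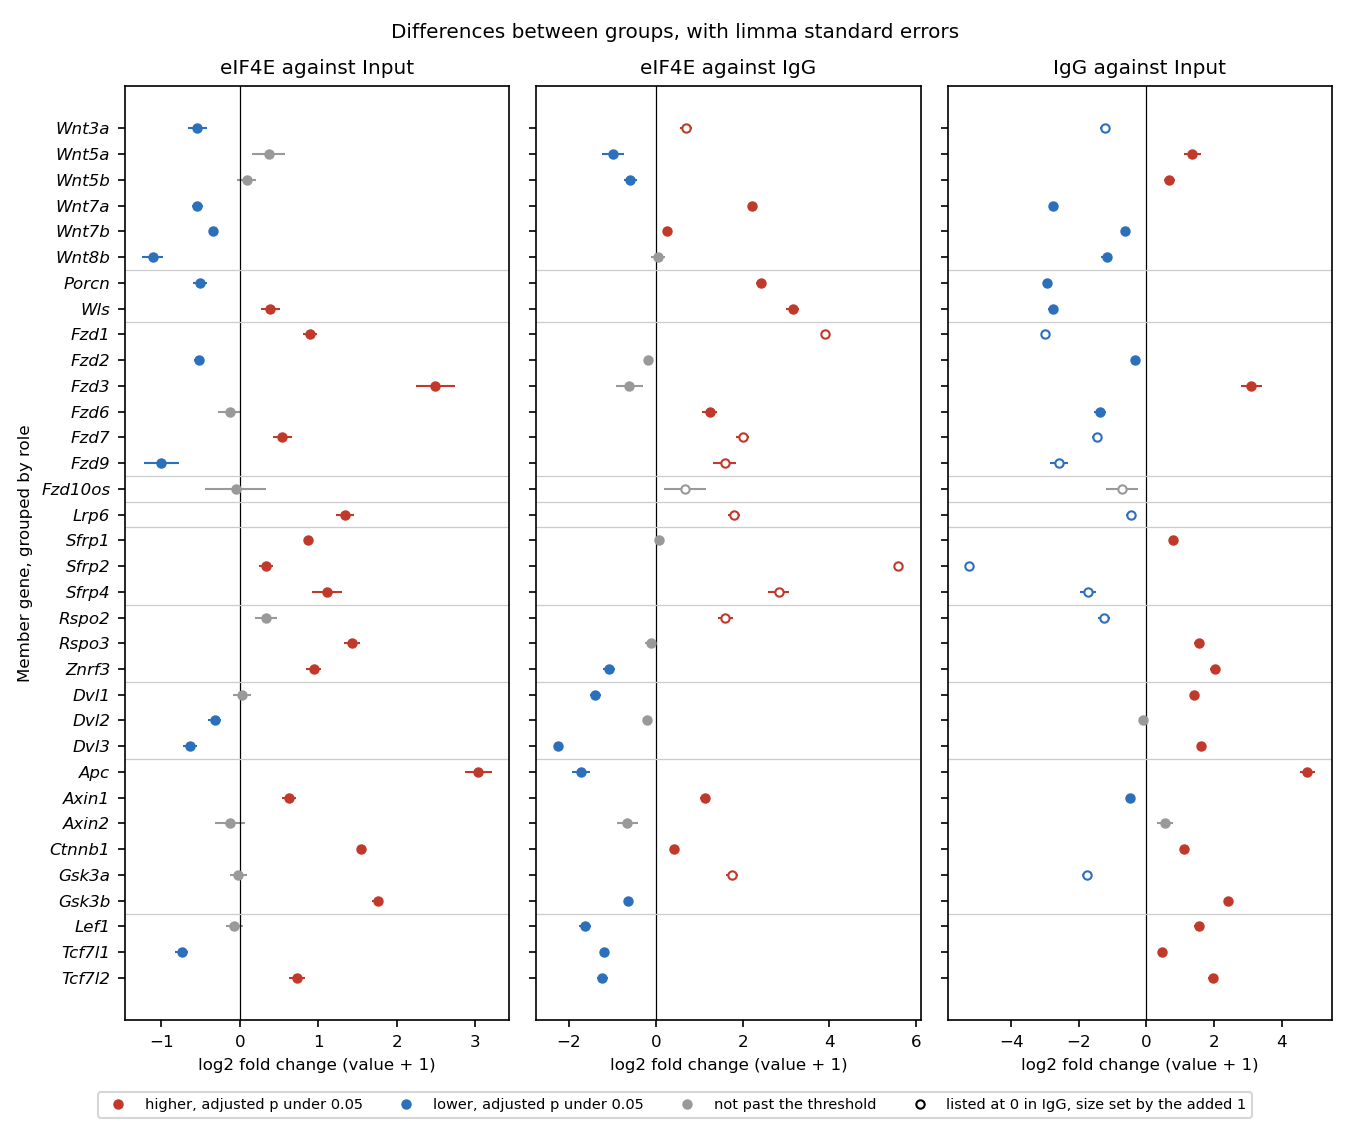
Log2 fold change of each tested member with its limma standard error, with 1 panel for each pair of groups (eIF4E and Input, eIF4E and IgG, IgG and Input) and genes grouped by role. Apc (3.04) and Fzd3 (2.49) have the highest values against Input and Wnt8b (−1.11) the lowest, and Dvl3 (−2.25) is lowest against IgG. Open points in the panels with IgG mark the 10 genes listed at 0 there, whose distance from 0 is set by the added 1.

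Of the 4 Sfrp genes, whose secreted products bind Wnts outside the cell, 3 were tested and higher in eIF4E, against 43.3% of all genes, with Sfrp2 losing its call in several alternatives. Sfrp1, an abundant product of cortical progenitors, measured 96.10 and 99.65 in eIF4E, 54.04 and 52.47 in Input and 92.34 in IgG. It rose 1.82-fold over Input (log2 0.87, SE 0.05, adjusted p = 2.0e-04), whereas against IgG the difference was log2 0.08 (adjusted p = 0.265) and turned to −0.26 with the same total for each library (adjusted p = 0.0197). Sfrp2 measured 48.40 and 45.72 in eIF4E and 39.58 and 34.60 in Input. It was listed at 0 in IgG, alone among the 11 members whose values exceeded 10 in all the others. The rise of 1.26-fold over Input (adjusted p = 0.025) was lost with median-of-ratios scaling (log2 0.02, adjusted p = 0.843), without eIF4E replicate 1 or 2 (adjusted p = 0.115 and 0.0716) and without Input replicate 2 (0.11). Sfrp4 measured 5.58 and 6.67 in eIF4E and 1.82 and 2.84 in Input (2.16-fold, log2 1.11, SE 0.19, adjusted p = 0.0056) and was listed at 0 in IgG. Sfrp5 was listed at 0 except for 0.07 in eIF4E replicate 2.

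R-spondins are secreted proteins that strengthen Wnt signals by removing the ubiquitin ligases Znrf3 and Rnf43, which take Frizzleds off the cell surface. Rspo3 measured 4.04 and 4.12 in eIF4E, 0.85 and 0.93 in Input and 4.52 in IgG, and rose 2.69-fold over Input (log2 1.43, SE 0.10, adjusted p = 3.3e-04). Rspo2 measured 2.33 and 1.76 against 1.43 and 1.36 and did not pass (adjusted p = 0.0852), but did with the same total for each library (log2 0.48, adjusted p = 0.0296) and without eIF4E replicate 2 (adjusted p = 0.0432). It was listed at 0 in IgG. Znrf3 measured 3.87 in both eIF4E libraries, 1.43 and 1.64 in Input and 9.27 in IgG, a rise of 1.92-fold over Input (adjusted p = 0.0012). For both Rspo3 and Znrf3 the IgG value was the highest of the 5 libraries. Rspo1 and Rnf43 stayed under 1 in every library.

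The Dishevelled proteins, which relay the signal from Frizzled, did not rise in any case. Dvl3 measured 7.18 and 8.07 in eIF4E, 12.19 and 12.44 in Input and 39.98 in IgG. It fell to 0.647 of Input (log2 −0.63, SE 0.09, adjusted p = 0.00246) and lay at 0.21 of IgG (adjusted p = 6.1e-05), both in every alternative. Dvl2 measured 14.68 and 13.43 in eIF4E, 18.39 and 17.06 in Input and 16.28 in IgG. Its fall to 0.804 of Input (adjusted p = 0.0231) was lost with the same total for each library (log2 −0.09, adjusted p = 0.395) and without eIF4E replicate 2, Input replicate 1 or Input replicate 2 (adjusted p = 0.0894, 0.116 and 0.0607). Dvl1 measured 3.08 and 2.75 in eIF4E, 2.98 and 2.7 in Input and 9.22 in IgG, and did not pass against Input (log2 0.03, SE 0.11, adjusted p = 0.828). After quantile normalization, however, Dvl1 was lower than Input (log2 −0.63, adjusted p = 0.00718).

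In the group of the destruction complex and its substrate, 4 of the 6 genes rose over Input, where 43.3% of all genes tested were higher. Ctnnb1, which encodes β-catenin, was the most abundant member in each library (chromosome 9, 120933400 to 120960507). It measured 457.31 and 471.21 in eIF4E, 156.43 and 160.76 in Input and 343.68 in IgG. The rise over Input was 2.92-fold (log2 1.54, SE 0.04, adjusted p = 6.1e-05) and held in every alternative. Over IgG it was 1.35-fold (log2 0.43, adjusted p = 0.00116), which became log2 0.08 with the same total for each library (adjusted p = 0.232) and −0.25 after quantile normalization (adjusted p = 0.0095). Ctnnb1 made up 50.2% and 50.3% of the summed level of all members in eIF4E, 29.8% and 30.6% in Input and 39.4% in IgG.

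Apc, the large scaffold of the complex, had the largest rise of all tested members (chromosome 18, 34220297 to 34322190). It measured 11.99 and 16.70 in eIF4E, 0.93 and 0.77 in Input and 49.22 in IgG, so the control precipitate was higher still. The rise over Input was 8.2-fold (log2 3.04, SE 0.17, adjusted p = 1.8e-04), and relative to IgG it fell to 0.302 (log2 −1.73, adjusted p = 0.00127). Gsk3b, the kinase that marks β-catenin for degradation, measured 46.69 and 43.21 in eIF4E, 12.31 and 12.72 in Input and 71.14 in IgG. It rose 3.4-fold over Input (chromosome 16, 38089001 to 38246084; log2 1.76, SE 0.07, adjusted p = 8.9e-05) and lay at 0.636 of IgG (adjusted p = 0.00146).

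The paralogs of this complex differed in their values. Gsk3a, which can stand in for Gsk3b in the pathway, measured 2.37 and 2.35 in eIF4E against 2.53 and 2.28 in Input, did not pass (log2 −0.02, SE 0.11, adjusted p = 0.891), and was listed at 0 in IgG. After quantile normalization Gsk3a was lower than Input (log2 −0.52, adjusted p = 0.0128). The ratio of Gsk3b to Gsk3a was 19.7 and 18.4 in eIF4E and 4.87 and 5.58 in Input. Axin1, the scaffold that limits the complex, measured 9.24 and 9.77 in eIF4E, 5.64 and 5.93 in Input and 3.8 in IgG. It rose 1.55-fold over Input (log2 0.63, SE 0.09, adjusted p = 0.00274), a call lost after quantile normalization (log2 0.12, adjusted p = 0.327), and 2.19-fold over IgG (limma adjusted p of 5.4e-04), the latter in every alternative. Axin2, whose transcription is a common readout of the pathway, measured 1.98 and 2.56 in eIF4E, 2.05 and 3.12 in Input and 4.14 in IgG. The eIF4E and Input values of Axin2 overlapped (log2 −0.12, SE 0.19, adjusted p = 0.593).

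The nuclear factors that bind DNA with β-catenin split. Tcf7l2 measured 23.07 and 19.50 in eIF4E, 12.01 and 12.88 in Input and 51.17 in IgG, and rose 1.65-fold over Input (log2 0.73, SE 0.10, adjusted p = 0.00282). Tcf7l1, known as a repressor of target genes in progenitors, measured 6.35 and 6.54 in eIF4E, 11.62 and 11.20 in Input and 16.15 in IgG. It fell to 0.6 of Input (log2 −0.74, SE 0.08, adjusted p = 0.00105), and both calls held in every alternative. These 2 genes stood at a ratio (Tcf7l2 to Tcf7l1) of 1.03 and 1.15 in Input, 3.63 and 2.98 in eIF4E and 3.17 in IgG. Lef1, an activator of the family, measured 16.51 and 20.45 in eIF4E, 19.54 and 19.08 in Input and 58.96 in IgG. It did not pass against Input (log2 −0.07, SE 0.11, adjusted p = 0.615), although with median-of-ratios scaling it was lower (log2 −0.38, adjusted p = 0.0365). Tcf7 stayed under the filter, at 0.88 and 1.39 in eIF4E and 0.66 and 0.71 in Input, and was listed at 0 in IgG.

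Values with eIF4E were next set against the control precipitate. How much RNA each precipitate yielded is unknown, so only relative abundance is compared, and the lone IgG library was assumed to vary like the others. That assumption was not tested, and IgG stood apart from the other libraries (above), so the p-values against it have no replicate check. Of the 34 tested members, 16 were higher in eIF4E than in IgG (53.1% of all genes tested were) and 10 were lower (30.6%). The median log2 fold change was 0.18 over the members and 0.55 over all genes. Of the 34, 10 were listed at 0 in IgG: Fzd1, Fzd7, Fzd9, Fzd10os, Gsk3a, Lrp6, Rspo2, Sfrp2, Sfrp4 and Wnt3a. No fold against IgG is given for these, since a value of 0 here can be a failed estimate. Among members listed above 0 in IgG, the largest rises were in Wls (8.44 and 7.99 against 0.03, log2 3.16), Porcn (5.35-fold) and Wnt7a (4.63-fold), followed by Fzd6 (log2 1.24, against 0.05 in IgG). These 4 had adjusted p-values of 6.0e-05, 6.5e-05, 4.3e-05 and 0.00224. The rise of Fzd6 turned to −0.58 after quantile normalization (adjusted p = 0.0279). The largest falls were in Dvl3 (log2 −2.25), Apc (log2 −1.73), Lef1 (0.323 of IgG, adjusted p = 3.7e-04) and Dvl1 (0.383, adjusted p = 5.2e-04). Falls were also seen in Tcf7l2 (0.426 of IgG, adjusted p = 6.7e-04), Tcf7l1 (0.434, adjusted p = 2.8e-04), Znrf3 (0.474, adjusted p = 0.00108), Wnt5a (0.507, adjusted p = 0.0183) and Wnt5b (0.664, adjusted p = 0.017), and a small rise in Wnt7b (1.21-fold, adjusted p = 0.0127). The members listed at 0 in IgG, all but Fzd10os among the 16 higher, had limma adjusted p-values between 1.3e-05 (Sfrp2) and 0.00869 (Wnt3a), except Fzd10os (0.245). These p-values rest on the listed 0 and on the added 1, so they carry no more weight than the folds left out. Axin2 (log2 −0.66), Dvl2 (−0.20), Fzd2 (−0.19), Rspo3 (−0.12) and Wnt8b (0.06) did not pass, at adjusted p = 0.0515, 0.129, 0.0679, 0.408 and 0.748. With the same total for each library the first 4 of these were lower in eIF4E (adjusted p = 0.0123, 0.00597, 0.0024 and 0.0289). The falls of Wnt5a and Wnt5b were lost without eIF4E replicate 2 (adjusted p = 0.052 and 0.0607). After quantile normalization Lrp6, Fzd9, Rspo2 and Gsk3a lost their calls (adjusted p = 0.0652, 0.571, 0.343 and 0.137) and the direction of Wnt3a turned. Restricted to genes above 0 in every library, 7 members were higher and 12 lower, and the split was 14 and 16 after rescaling to the same total and 9 and 17 after quantile normalization. Over all genes the split moved as well, from 6785 higher and 3912 lower to 4389 and 4248, 6061 and 4828, and 4609 and 4835, in the same order.

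The IgG library against Input gives the background of the precipitation. There 14 members were higher than Input (37.8% of all genes tested were) and 17 lower (50.3%), with a median of −0.40 over the members and −0.43 over all genes. Apc stood at 27.2-fold over Input in IgG, Fzd3 at 8.55-fold, Gsk3b at 5.34-fold, Znrf3 at 4.05-fold and Tcf7l2 at 3.88-fold, with adjusted p-values from 1.8e-05 (Gsk3b) to 5.1e-04 (Fzd3). Each of these rose over Input in eIF4E as well, by 8.2-fold, 5.62-fold, 3.4-fold, 1.92-fold and 1.65-fold, but the comparisons share the Input libraries. Lef1, Dvl1 and Dvl3 were 2.95-fold, 2.66-fold and 3.08-fold higher in IgG than in Input, and in eIF4E against Input they were not called higher. The other members higher in IgG were Rspo3 (2.92-fold), Wnt5a (2.55-fold), Ctnnb1 (2.16-fold), Sfrp1 (1.72-fold), Wnt5b (1.6-fold) and Tcf7l1 (1.38-fold). The 17 lower members included the 9 called ones listed at 0 in IgG and 8 others: Porcn (0.132 of Input), Wls (0.147), Wnt7a (0.149), Fzd6 (0.387), Wnt8b (0.445), Wnt7b (0.653), Axin1 (0.708) and Fzd2 (0.797). For Wls and Fzd6, near 0 in IgG, the size of the fall depends on the added 1. Limma adjusted p-values ran from 1.8e-05 (Gsk3b) to 0.00964 (Wnt5b) for the 14 higher members and from 8.5e-06 (Sfrp2) to 0.029 (Lrp6) for the 17 lower ones. Those of Sfrp2, Lrp6 and the other members listed at 0 in IgG rest on that 0 and on the added 1. The directions of Lrp6 and Fzd6 turned after quantile normalization, and Wnt3a, Rspo2 and Sfrp4 lost their calls. With the same total for each library the falls of Wnt7b (log2 −0.04, limma adjusted p = 0.632) and Axin1 (−0.01, 0.922) were lost. Fzd2 was then higher in IgG (log2 0.24, limma adjusted p = 0.0378). The rise of Tcf7l1 was lost with median-of-ratios scaling (log2 0.21, limma adjusted p = 0.11) and quantile normalization (0.01, 0.944). Axin2 (adjusted p = 0.0866), Dvl2 (0.334) and Fzd10os (0.211) did not pass. Dvl2 passed in either direction with the scaling. It was lower in IgG with median-of-ratios scaling (log2 −0.38, limma adjusted p = 0.0165) and quantile normalization (−0.50, 0.00979). With the same total for each library Dvl2 was higher in IgG (log2 0.44, limma adjusted p = 0.0111), as was Axin2 (1.00, 0.00981).

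Placed beside the other 4 libraries, IgG had the highest value for 13 of the 34 members (32.7% of all genes tested) and the lowest for 16 (50.9%). The 13 were Apc, Axin2, Dvl1, Dvl3, Fzd3, Gsk3b, Lef1, Rspo3, Tcf7l1, Tcf7l2, Wnt5a, Wnt5b and Znrf3. Of the 11 members whose rise over Input held in every alternative, 5 were not among these 13: Ctnnb1, Fzd1, Lrp6, Sfrp1 and Sfrp4. Of these 5, Fzd1, Lrp6 (which entered through eIF4E alone) and Sfrp4 were listed at 0 in IgG, and Ctnnb1 and Sfrp1 lay between Input and eIF4E.

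**Figure D3:**
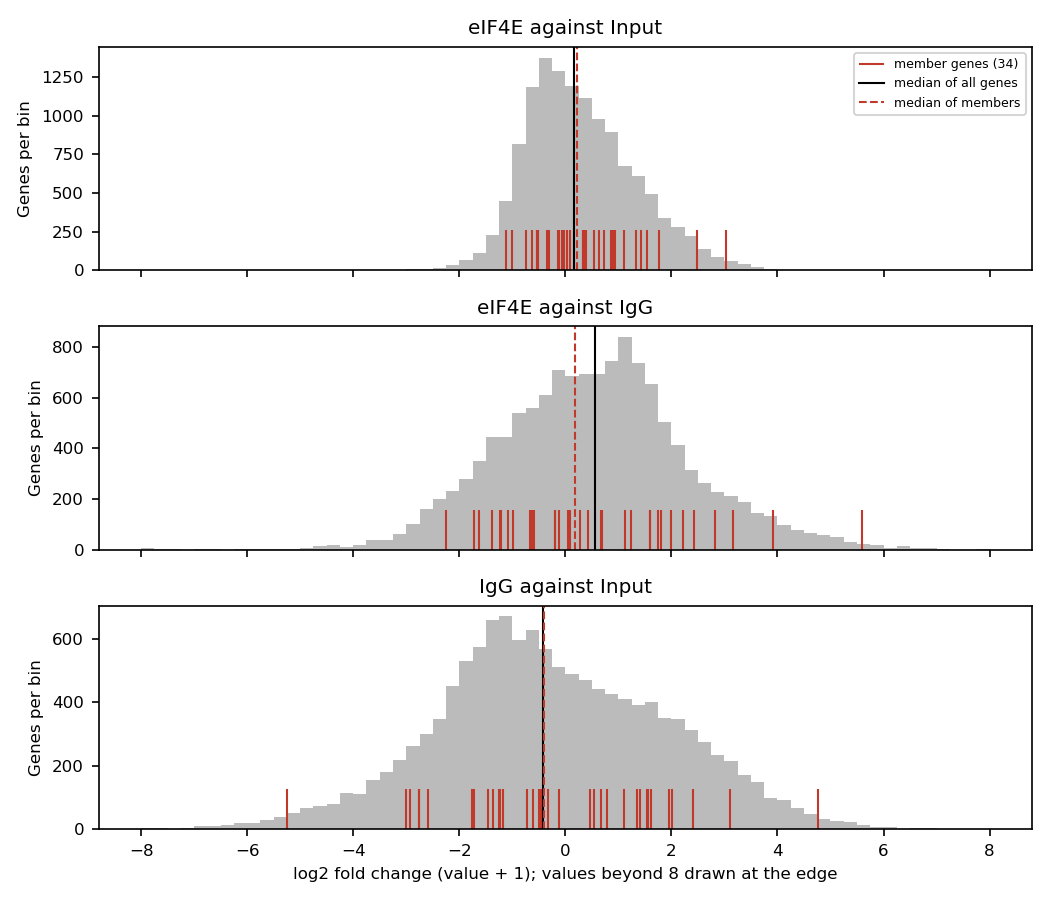
Histograms of the log2 fold change of all 12769 genes tested, in 3 panels for the 3 comparisons, with red ticks for the 34 members, a black line at the median of all genes and a dashed red line at the median of the members. The members spread over most of each distribution, and the medians lie at 0.16 and 0.21, 0.55 and 0.18, and −0.43 and −0.40 (all genes, then members).

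The members differ widely in genomic span (from transcription start to end with introns, as RefSeq gives it on GRCm38.p6), from 2110 bases for Fzd9 to 191863 bases for Tcf7l2. Across the 34 tested members, Spearman's rho between span and log2 fold change was 0.34 for eIF4E against Input, −0.39 for eIF4E against IgG and 0.52 for IgG against Input. Over the 12395 tested genes with a span it was 0.40, −0.26 and 0.39. These are descriptions across genes that share libraries, and the comparisons share groups. Exceptions among the members were Tcf7l1, at 162675 bases and lower than Input in eIF4E, and Fzd1, at 4378 bases and higher.

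**Figure D4:**
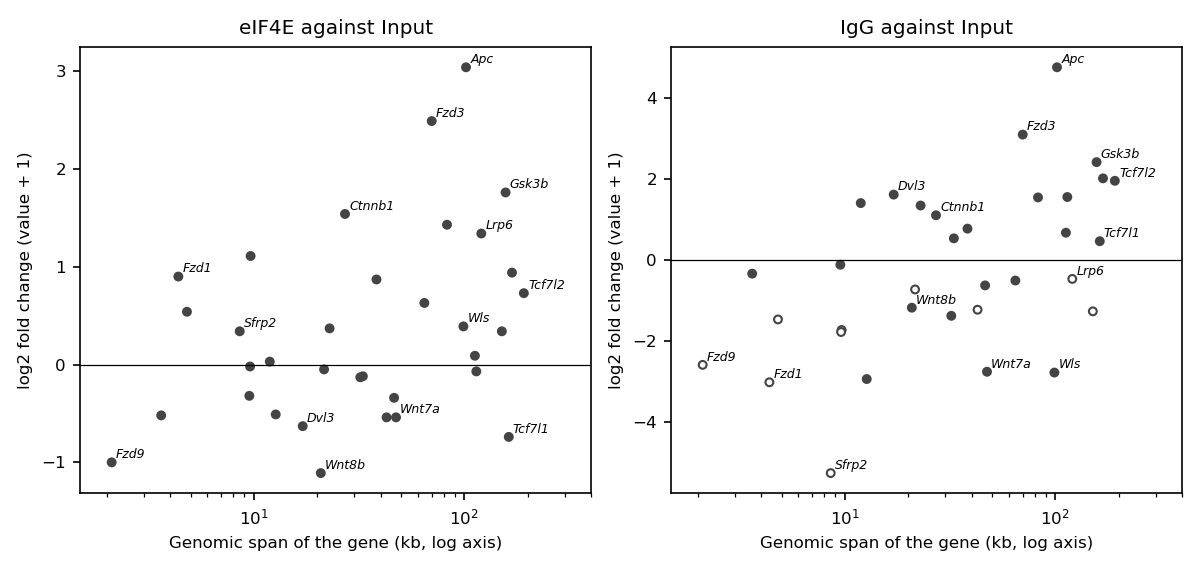
Genomic span of each tested member in kilobases (x axis, log scale) against its log2 fold change (y axis), for eIF4E against Input on the left and IgG against Input on the right, with 14 genes named. Apc, Fzd3 and Gsk3b lie high in both panels, and Fzd1 lies above 0 on the left. Open points on the right mark genes listed at 0 in IgG, whose height is set by the added 1.

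Other genes of the pathway, in 5 lists, were counted in the same fit of eIF4E against Input. Partners of the destruction complex (casein kinases, tankyrases, ubiquitin ligases and regulators such as Nkd1) had 21 of 36 higher and 7 lower, with a median log2 fold change of 0.35, where 43.3% of all genes tested were higher and 30.6% lower. The counts of these 5 lists are descriptions beside those shares. Tnks2 and Csnk1g3 were highest, at 6.64-fold (15.13 and 14.97 in eIF4E against 1.22 and 1.63 in Input) and 6.54-fold. Tnks2 encodes a tankyrase, which triggers the breakdown of Axin, and Csnk1g3 a casein kinase. Nkd1, a feedback inhibitor that binds Dishevelled, was lowest, with 30.72 and 30.23 in eIF4E, 87.11 and 83.43 in Input and 34.90 in IgG (0.365 of Input, log2 −1.45, SE 0.05, adjusted p = 8.5e-05), followed by Dact2 at 0.418. Dact2 passed the filter only through Input, and Csnk1g3 only through eIF4E and IgG.

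The nuclear and adhesion partners of β-catenin had 14 of 27 higher and 8 lower (median 0.43). The acetyltransferases Ep300 and Crebbp rose 4.27-fold and 3.45-fold over Input. Tle5, a short relative of the Groucho corepressors, fell to 0.459 (213.99 and 213.63 in eIF4E against 460.77 and 473.36), and Ctnnbip1, an inhibitor of the β-catenin to Tcf contact, to 0.524. Planar polarity genes and receptors that act without β-catenin had 10 of 25 higher and 11 lower (median −0.28), from the kinase Mapk8 (2.39-fold) and the Wnt receptor Ryk (2.08-fold) to Camk2a (0.467) and Ptk7 (0.418, with 21.04 and 22.29 against 52.90 and 53.41).

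A list of other secreted, receptor-level and feedback genes, not all of them antagonists, had 2 of 12 higher, Gpc6 (2-fold) and Apcdd1 (1.51-fold). In it 5 were lower (median −0.01), with Tpbg at 0.523 and the Wnt-binding inhibitor Wif1 at 0.531. Frzb, a relative of the Sfrp proteins that the name rule did not take, was in this list and did not pass (log2 0.24, adjusted p = 0.0942). Genes described elsewhere as targets of β-catenin had 9 of 21 higher and 5 lower (median 0.16). Lrp8, a reelin receptor, rose 6.73-fold and Tcf4, a basic helix-loop-helix factor not of the Tcf7 family, 5.36-fold, while Ephb3 fell to 0.586 and Sp5, which passed the filter only through Input, measured 0.549 of it. Against IgG, Lrp8, Tcf4, Ep300, Crebbp, Mapk8, Ryk and Gpc6 were lower in eIF4E, Csnk1g3 was higher (log2 0.36, adjusted p = 0.0415), Tnks2 did not pass (adjusted p = 0.231), and Apcdd1 was listed at 0 in IgG.

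**Figure D5:**
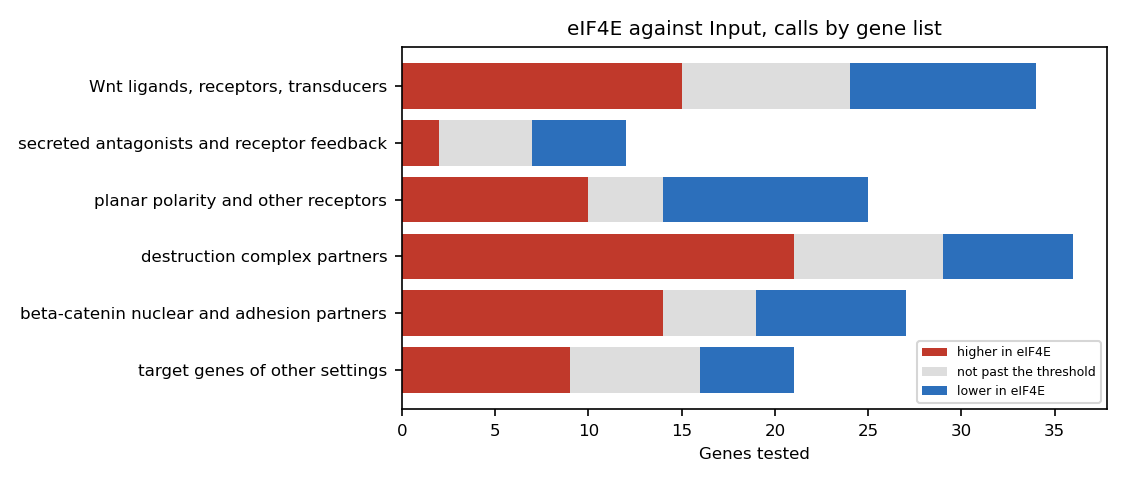
Number of genes tested in each list (x axis) that were higher in eIF4E than in Input (red), lower (blue) or not past the threshold (grey), for the Wnt members and 5 lists of other pathway genes. The destruction complex partners have 21 of 36 higher, and the planar polarity list has 10 higher and 11 lower.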

How the data were processed

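RNA from 5 libraries (eIF4E n = 2, Input n = 2, IgG n = 1, grouped by sample title) became cDNA by Smart-seq2 (per the labels' protocols), a poly(A)-primed method without strand or molecule marks. Per the submitters' processing notes, which give no roles, the authors used STAR 2.7.9a, RSEM 1.3.3 and mm10. The deposited abundance signal is linear and may be TPM or FPKM, so levels of whole libraries against each other carry an unknown factor. The annotation was not given in the sources used here. RSEM divides reads shared between genes, so values of near-identical genes are uncertain.

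The table had 50161 rows, and 286 exact repeats of an ID were removed. Genes reaching 1 in 2 or more libraries (12769) were fitted as log2(value + 1) with limma 3.58.1 in R 4.3.3 (3 groups, eBayes with trend, two-sided, Benjamini-Hochberg over all genes, threshold 0.05). Residual degrees of freedom were 2. The script was tested on simulated data. Alternatives changed the pseudocount, filter, scaling, libraries and replicate block. Spans and start sequences came from RefSeq (GRCm38.p6), by symbol.

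Every member is named, tested ones with all 3 comparisons, where p-values against IgG are partly ranges. Library values are always printed for members past the threshold against Input with a mean of 10 or more and for 10 core genes. Of each other list, the 2 highest and 2 lowest past the threshold are named. The members, lists and alternatives were chosen with earlier results of these data known.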

Additional observations from a re-analysis of the deposited data

How the results depend on the processing

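The counts of calls depended on the scaling. The median log2 fold change of all genes moved from 0.16 (eIF4E against Input) to −0.11, 0.36 and −0.11 with median-of-ratios, same-total and quantile scaling, from 0.55 (eIF4E against IgG) to 0.51, 0.26 and −0.04, and from −0.43 (IgG against Input) to −0.63, 0.03 and −0.06. In eIF4E against Input 58.6% of calls over all genes were higher, against 45.7%, 70.3% and 45.5%. For eIF4E against IgG, the 16 higher members became 9 with quantile normalization and 7 among genes above 0 in all 5 libraries, and the 10 lower became 16 with the same total and 17 with quantile normalization. Over all genes 63.4% of these calls were higher in the main fit. The share was 48.8% with quantile normalization, 50.8% among genes above 0 in all 5 libraries and 55.7% with the same total. The 17 members lower in IgG than in Input became 8 among genes above 0 in all 5 libraries, where fewer genes are tested. Over all genes the lower calls went from 6428 to 4072. Leaving out each library gave 13 to 15 higher and 7 to 10 lower (eIF4E against Input), 16 and 8 to 11 (eIF4E against IgG), and 14 to 15 and 15 to 17 (IgG against Input). A lone library left in a group was assumed to vary like the others.

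Directions of single members turned mostly with scaling, and the cause was not tested. For eIF4E against Input, median-of-ratios scaling gave Dvl1 −0.21 and Wnt5b −0.12. The same total gave Axin2 0.05, Fzd6 0.02, Lef1 0.16, Gsk3a 0.15 and Fzd10os 0.04. Quantile normalization gave Wnt5a −0.04, Wls −0.14, Dvl1 −0.63, Wnt5b −0.30 and Rspo2 −0.06. For eIF4E against IgG, the same total gave Wnt7b −0.07, Sfrp1 −0.26 and Wnt8b −0.12, and quantile normalization gave Ctnnb1 −0.25, Wnt3a −0.55, Fzd6 −0.58, Sfrp1 −0.24, Wnt8b −1.26 and Fzd10os −0.56. For IgG against Input, the same total gave Dvl2 0.44 and Fzd2 0.24, and quantile normalization gave Fzd6 0.12, Lrp6 0.38 and Fzd10os 0.20. Those of Wnt3a, Lrp6 and Fzd10os against IgG rest on a listed 0 and on the added 1. Leaving out a library turned members near 0 against Input: Axin2 ran from −0.34 to 0.09, Dvl1 from −0.03 to 0.09, Fzd10os from −0.47 to 0.37, Fzd6 from −0.26 to 0.00, Gsk3a from −0.07 to 0.03 and Lef1 from −0.21 to 0.08, and Wnt8b ran from −0.05 to 0.17 against IgG. Over all 1160 alternative values of single members, 1060 kept direction and side of the threshold, 43 lost the call, 21 gained it and 36 turned. This pooled count includes settings that changed nothing, namely both pseudocounts, the fit without IgG and the replicate block. Of the 102 values of each scaling, 93 were kept with median-of-ratios scaling, 80 with the same total and 73 after quantile normalization.

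Same-numbered eIF4E and Input libraries share only a number in the labels, and their deviations correlated at 0.0236. With the replicate block, 15 members were higher and 10 lower in eIF4E than in Input, as without it. With 1 IgG library and no counts, precision and depth limit every value set against IgG.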
